A study of Sus scrofa with 11 samples.

Results

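Cell cycle and mitosis genes were followed in the livers of irradiated and control pigs. A list of 56 genes that drive cell division was matched by symbol to a table of 12505 pig genes in FPKM, a level that scales the fragments of a gene to its transcript length and to the size of the library. Of these, 39 were in the table, and 32 reached at least 1 FPKM in 2 or more of the 11 libraries and were tested among 11644 genes. The list was split into a G1/S set, for entry into the cycle and DNA replication (23 listed, 18 in the table, 17 tested), and a G2/M set, for entry into, passage through and exit from mitosis (33 listed, 21 in the table, 15 tested). The 17 listed genes without a matched row were not analysed here. They are CDC6, PCNA, RRM2, E2F8 and GINS2 of the G1/S set, and CCNA2, MKI67, BUB1, BUB1B, AURKA, PLK4, TTK, CENPE, CENPF, KIF11, PRC1 and ANLN of the G2/M set.

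RNA was sequenced from whole liver of pigs whose genotype is labelled WT, although the labels also give hepatocyte as the cell type. There were 2 control libraries, labelled day 0, and 3 libraries each of livers irradiated with 20, 30 and 40 Gy, all labelled day 35. Against control, radiation and the 35 days between the labelled times therefore cannot be told apart; the comparison of 40 Gy with 20 and 30 Gy was made within day 35. The labels do not say whether the libraries of a group came from separate animals, how the dose was fractionated or whether controls were sham-treated, so the p-values speak only for differences from library to library, which may be technical.

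Cells enter the cycle when D-type cyclins with CDK4 and cyclin E with CDK2 release the E2F transcription factors, which switch on the genes for replication licensing, DNA synthesis and nucleotide supply. Later, cyclin B with CDK1 starts mitosis, kinases and motor proteins build the spindle, and the anaphase-promoting complex ends mitosis by tagging cyclin B and other proteins for destruction. Most hepatocytes of a healthy adult liver are out of the cycle, but they can enter it again after injury or loss of liver tissue.

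The libraries had 10236 to 10866 genes at 1 FPKM or more. Their read depth is unknown, because the values could not be resolved into whole reads. 30Gy-1 and 30Gy-2 were nearly identical, as were 20Gy-3 and 30Gy-3, whose doses differ. The SD of the log2 ratio over 8970 genes was 0.191 and 0.196 for these pairs, and 0.339 to 1.04 for the other 53 pairs of libraries. Means ± SD of 30 Gy count the pair of 30Gy-1 and 30Gy-2 as 1 sample (n = 2), whereas the tests treat its libraries as separate, and the count of each comparison is also given with the second pair omitted.

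After irradiation, 11 of the 32 tested cell cycle genes rose and none fell. They were CCND1, TK1 and E2F1 of the 17 tested G1/S genes and CCNB1, CDC20, UBE2C, TOP2A, KIF20A, HJURP, BIRC5 and STMN1 of the 15 tested G2/M genes. Over all 11644 genes, 1.86% rose and 2.84% fell. At an unadjusted p under 0.05 in limma, 21 of the 32 were higher, as were 8.91% of all genes tested, and 1, TYMS, was lower, as were 11.2%. The test was limma on log2(FPKM + 1) with 4 group means, taking the mean of the 3 dose groups minus control, and a gene passed at a Benjamini-Hochberg adjusted p under 0.05 over all genes tested. A log2 change on this scale understates the change of genes with low levels. In bulk liver, more cells of a dividing type and more RNA per cell cannot be told apart.

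Of the 32 genes, 18 were under 1 FPKM in both control libraries and entered the test only through the irradiated ones, so counts over the tested genes are a description. Among these 18, 6 rose (6.19% of the 970 tested genes that were likewise under 1 FPKM in both controls). Among the other 14, 5 rose (CCND1, TK1, STMN1, UBE2C and BIRC5), where 1.47% of the 10674 tested genes with at least 1 FPKM in a control library did. The median log2 change was 0.93 in the G2/M set, 0.56 in the G1/S set and 0.01 over all genes tested. These medians include the genes that entered only through the irradiated libraries. With a minimum of 1 FPKM in 8 libraries the G1/S median turned to -0.04 (11 genes), and with a pseudocount of 0.1 the medians were 1.95 in the G2/M set and 1.24 in the G1/S set. All 15 tested G2/M genes had a positive log2 change, as had 11 of the 17 tested G1/S genes.

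The separation of the libraries was wider than the count of passed tests. In 21 of the 32 genes, 9 of the G1/S set and 12 of the G2/M set, all 9 irradiated libraries lay above both control libraries, which held for 5.42% of all genes tested. Among the 18 genes under 1 FPKM in both controls the number was 15, against 17.8% of such genes. None of the 32 had all 9 irradiated libraries below both controls, a pattern found in 7.86% of all genes tested. The 18 genes under 1 FPKM in both controls could not show it, because they entered the test only through higher irradiated libraries. For them its absence is no result. In the control libraries 8 and 9 of the 18 G1/S genes in the table reached 1 FPKM. In the irradiated ones the number was 11 to 17. Of the 21 G2/M genes in the table, 4 and 5 reached it in the controls and 8 to 19 after irradiation.

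**Figure D1:**
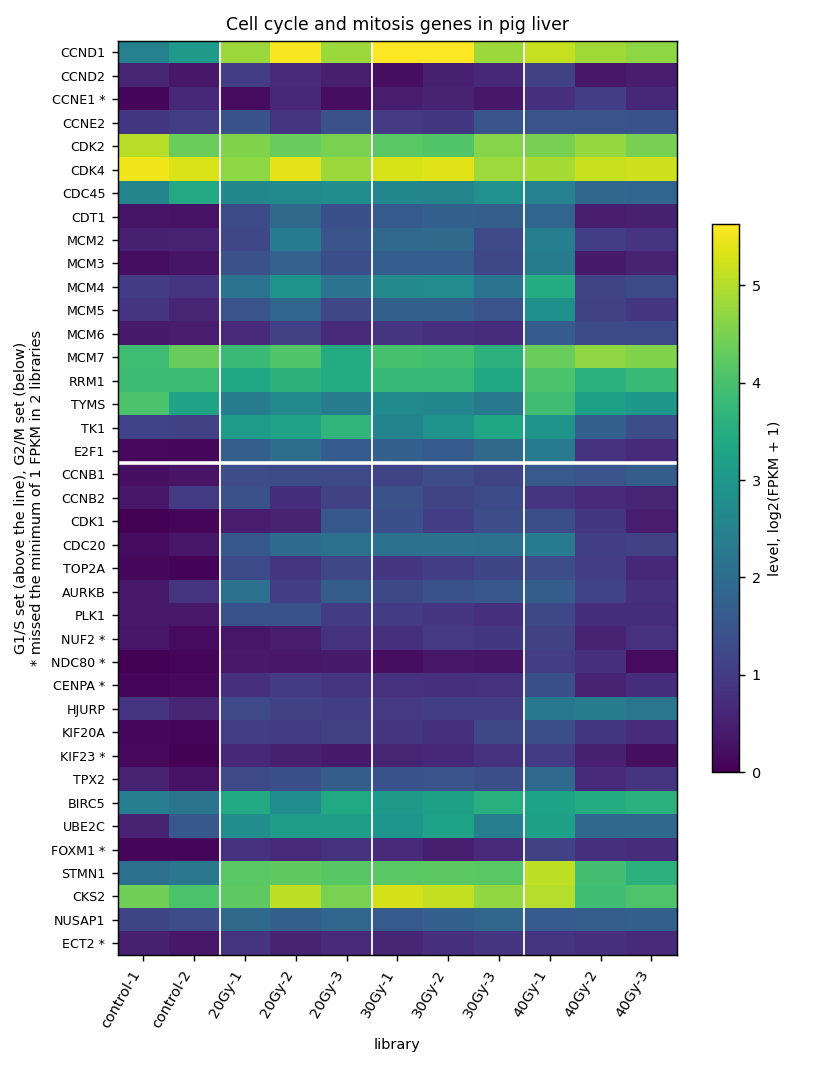
Level of the 39 cell cycle genes in the table as log2(FPKM + 1), with 1 row per gene and 1 column per library in the order control, 20, 30 and 40 Gy; the white line parts the G1/S set from the G2/M set, and an asterisk marks the 7 genes that missed the minimum. Most rows are darkest in the 2 control columns, and 40Gy-1 is the brightest column in 13 of the 32 tested genes.

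Of the G1 regulators, CCND1 and E2F1 rose. CCND1 (chromosome 2, 3621242 to 3633380, Sscrofa11.1), the cyclin that activates CDK4 and CDK6 in response to growth factors, was at 4.58 and 7.20 FPKM in the control libraries, 26.6, 46.6 and 26.8 FPKM at 20 Gy, 48.5, 48.6 and 26.8 FPKM at 30 Gy and 34.0, 27.4 and 24.4 FPKM at 40 Gy. The control libraries were far below every irradiated one, and within 20 and 30 Gy the libraries lay either at 26.6 to 26.8 FPKM or at 46.6 to 48.6 FPKM. Group means were 5.89 ± 1.85 FPKM in controls (SD, n = 2), 33.3 ± 11.5 FPKM at 20 Gy (n = 3), 37.7 ± 15.4 FPKM at 30 Gy (n = 2) and 28.6 ± 4.93 FPKM at 40 Gy (n = 3). The log2 change of irradiated against control liver was 2.34 (SE 0.29, adjusted p = 0.00249, and 0.00139 to 0.0423 over the alternatives), and the call held under all 21 alternatives.

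The other cyclins and kinases of G1 did not pass the test. CDK4, the partner of cyclin D1, was at 24.6 to 41.3 FPKM in irradiated libraries and at 44.8 and 38.8 FPKM in controls, so the groups overlapped (log2 change -0.35, SE 0.22, adjusted p = 0.43). CDK2, the partner of cyclin E, was at 16.3 to 25.9 FPKM in irradiated libraries against 31.5 and 19.7 FPKM in controls. In FPKM these kinases were the highest of the 39 genes in each control library. Cyclin E2, CCNE2, lay at 0.814 to 1.80 FPKM in irradiated libraries and at 0.897 and 1.02 FPKM in controls, and overlaps the gene INTS8, whose reads may be counted with it. CCND2, cyclin D2, was low throughout, at 0.150 to 1.14 FPKM in irradiated libraries and 0.507 and 0.276 FPKM in controls. The 95% intervals of the log2 change were -0.85 to 0.15 for CDK4, -0.70 to 0.19 for CDK2, -0.14 to 0.72 for CCNE2 and -0.37 to 0.62 for CCND2. CCNE1, cyclin E1, missed the minimum, with a highest level of 1.03 FPKM in 40Gy-2.

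E2F1 (chromosome 17, 37178587 to 37190118), a transcription factor that turns on replication genes when it is freed from the retinoblastoma protein, rose as well. It was at 0.106 and 0.0881 FPKM in the control libraries, 2.28, 3.09 and 2.13 FPKM at 20 Gy, 2.30, 2.01 and 2.83 FPKM at 30 Gy and 3.94, 0.767 and 0.620 FPKM at 40 Gy. Neither control was above 0.106 FPKM, and the lowest irradiated libraries were 40Gy-2 and 40Gy-3. The log2 change was 1.47 (SE 0.34, adjusted p = 0.0383, and 0.000772 to 0.243 over the alternatives). The call was lost when any one library of 20 or 30 Gy was left out (adjusted p 0.0587 to 0.0724) and without control-1 (0.228) or control-2 (0.243), and it was also lost in other alternatives.

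The licensing factor CDT1 and the MCM genes were higher in all irradiated libraries than in both controls, except MCM7, but did not pass the test. CDT1 loads the MCM helicase, a ring of MCM2 to MCM7, onto replication origins. CDT1 itself was at 0.254 and 0.216 FPKM in the control libraries, 1.39, 2.86 and 1.60 FPKM at 20 Gy, 2.02, 2.34 and 2.25 FPKM at 30 Gy and 2.55, 0.360 and 0.403 FPKM at 40 Gy. The controls were lowest, 40Gy-2 and 40Gy-3 lay close above them, and the other 7 irradiated libraries reached 1.39 to 2.86 FPKM. Its log2 change was 1.07 (SE 0.32, adjusted p = 0.0947, and 0.0093 to 0.367 over the alternatives).

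MCM4 showed the largest log2 change among the helicase subunits, with 0.974 and 0.835 FPKM in the control libraries, 3.43, 6.41 and 3.45 FPKM at 20 Gy, 5.29, 5.62 and 3.44 FPKM at 30 Gy and 10.2, 1.24 and 1.39 FPKM at 40 Gy. MCM2 was at 0.441 and 0.445 FPKM in the control libraries, 1.29, 4.06 and 1.81 FPKM at 20 Gy, 2.81, 2.87 and 1.35 FPKM at 30 Gy and 4.40, 1.06 and 0.796 FPKM at 40 Gy. MCM3 was at 0.162 and 0.251 FPKM in the control libraries, 1.62, 2.41 and 1.55 FPKM at 20 Gy, 2.23, 2.21 and 1.33 FPKM at 30 Gy and 4.12, 0.336 and 0.452 FPKM at 40 Gy. In all 3 genes 40Gy-1 was the highest of the 11 libraries, whereas 40Gy-2 and 40Gy-3 lay below every 20 and 30 Gy library and just above the controls. Among the other 6 irradiated libraries, 20Gy-2, 30Gy-1 and 30Gy-2 were above 20Gy-1, 20Gy-3 and 30Gy-3 in each of these genes. The log2 changes of irradiated against control liver were 1.36 (SE 0.50, adjusted p = 0.165, and 0.0121 to 0.48 over the alternatives) for MCM4, 1.08 (SE 0.41, adjusted p = 0.17, and 0.0708 to 0.506 over the alternatives) for MCM2 and 1.11 (SE 0.41, adjusted p = 0.166, and 0.0093 to 0.527 over the alternatives) for MCM3.

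MCM5 followed the same order at the top, with 0.843 and 0.504 FPKM in the control libraries, 1.76, 2.55 and 1.31 FPKM at 20 Gy, 2.38, 2.29 and 1.70 FPKM at 30 Gy and 6.08, 1.15 and 0.848 FPKM at 40 Gy (log2 change 0.84, SE 0.41, adjusted p = 0.277). Summed over MCM2 to MCM5, the level was 2.42 and 2.04 FPKM in the control libraries, 8.10, 15.4 and 8.13 FPKM at 20 Gy, 12.7, 13.0 and 7.83 FPKM at 30 Gy and 24.8, 3.78 and 3.49 FPKM at 40 Gy. Every irradiated library was above both controls in this sum, and the spread within 40 Gy was wider than the range over both lower doses.

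In MCM6 and MCM7, unlike in MCM2 to MCM5, 40Gy-2 and 40Gy-3 were above the libraries of 20 and 30 Gy. MCM6 was at 0.324 and 0.373 FPKM in the control libraries, 0.600, 1.13 and 0.606 FPKM at 20 Gy, 0.815, 0.693 and 0.629 FPKM at 30 Gy and 2.12, 1.42 and 1.40 FPKM at 40 Gy. MCM7 was at 13.8 and 19.0 FPKM in the control libraries, 13.3, 16.1 and 10.0 FPKM at 20 Gy, 15.0, 14.2 and 11.3 FPKM at 30 Gy and 19.4, 25.1 and 22.5 FPKM at 40 Gy. MCM6 was highest in 40Gy-1 and MCM7 in 40Gy-2, and for both all 3 libraries of 40 Gy lay above all 6 of 20 and 30 Gy. MCM6 had a log2 change of 0.56, SE 0.16, adjusted p = 0.0846 in irradiated against control liver and MCM7 one of -0.04, SE 0.20, adjusted p = 0.931; neither passed in that comparison. MCM7 overlaps AP4M1, so its level may include reads of that gene. CDC45, which joins the helicase when origins fire, was at 4.93 and 9.52 FPKM in the control libraries, 5.08, 5.41 and 5.80 FPKM at 20 Gy, 5.12, 4.91 and 6.16 FPKM at 30 Gy and 4.66, 2.63 and 2.58 FPKM at 40 Gy. It was lowest in 40Gy-2 and 40Gy-3 and highest in control-2 (log2 change -0.51, SE 0.23, adjusted p = 0.253, and 0.0819 to 0.907 over the alternatives).

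**Figure D2:**
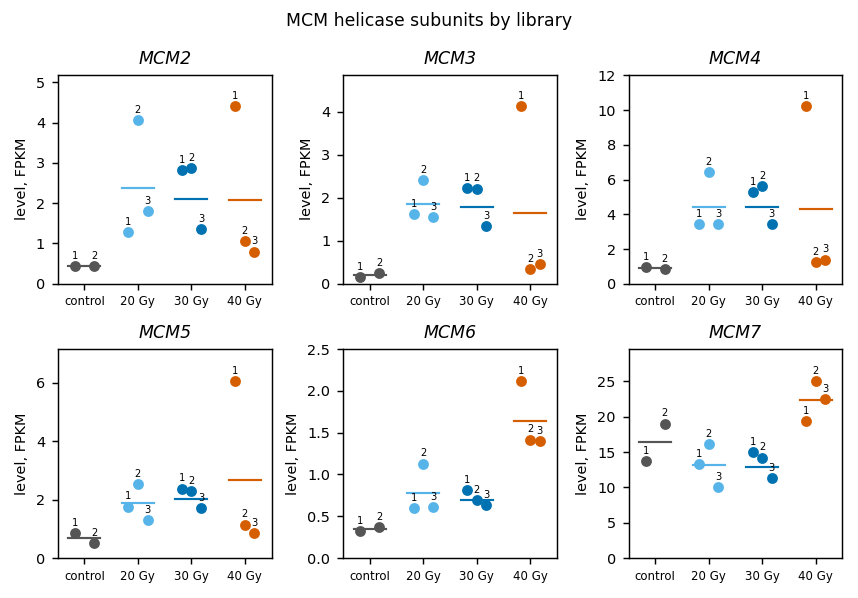
FPKM of the MCM helicase subunits MCM2 to MCM7 (linear axes from 0) in each library, by group on the x axis; points are libraries, numbered by replicate, and lines are group means, with 30Gy-1 and 30Gy-2 counted as 1 sample at 30 Gy. In MCM2 to MCM5 the point of 40Gy-1 is the highest of all and 40Gy-2 and 40Gy-3 lie near the controls, whereas in MCM6 and MCM7 all 3 libraries of 40 Gy are above those of 20 and 30 Gy.

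Genes that supply nucleotides did not move together. Thymidine kinase, TK1 (chromosome 12, 3785997 to 3794824), which salvages thymidine for DNA synthesis, was at 1.21 and 1.15 FPKM in the control libraries, 7.60, 8.54 and 11.8 FPKM at 20 Gy, 4.86, 6.40 and 9.13 FPKM at 30 Gy and 6.50, 2.29 and 1.51 FPKM at 40 Gy. The controls were lowest, 40Gy-2 and 40Gy-3 came next, and the highest was 20Gy-3. TK1 rose by 1.63 (SE 0.35, adjusted p = 0.0288, and 0.00337 to 0.211 over the alternatives) on the log2 scale. Leaving out control-1 (0.183), control-2 (0.211), 20Gy-3 (0.0503) or 30Gy-2 (0.0558) ended the call.

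TYMS, thymidylate synthase, which makes the same nucleotide anew, was at 15.4 and 8.50 FPKM in the control libraries, 4.17, 5.48 and 4.15 FPKM at 20 Gy, 5.42, 5.09 and 3.83 FPKM at 30 Gy and 13.9, 8.26 and 7.05 FPKM at 40 Gy. All 6 libraries of 20 and 30 Gy lay below both controls, and those of 40 Gy overlapped them. The log2 change of irradiated against control liver was -0.85 (SE 0.26, adjusted p = 0.0974, and 0.0203 to 0.612 over the alternatives). RRM1, the large subunit of ribonucleotide reductase, stayed within 9.37 to 15.3 FPKM in irradiated libraries and was at 13.5 and 13.5 FPKM in controls (log2 change -0.21, SE 0.16, adjusted p = 0.529, 95% interval -0.57 to 0.16).

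Of the genes that start mitosis, cyclin B1 rose in every dose group. CCNB1 (chromosome 16, 47338239 to 47348385), which activates CDK1 at the start of mitosis, was at 0.183 and 0.225 FPKM in the control libraries, 1.51, 1.48 and 1.38 FPKM at 20 Gy, 1.21, 1.50 and 1.22 FPKM at 30 Gy and 1.99, 1.81 and 2.17 FPKM at 40 Gy. The lowest irradiated library was at 1.21 FPKM and the higher control at 0.225 FPKM. Means were 0.204 ± 0.0299 FPKM in controls (SD, n = 2), 1.45 ± 0.0700 FPKM at 20 Gy (n = 3), 1.29 ± 0.0972 FPKM at 30 Gy (n = 2) and 1.99 ± 0.184 FPKM at 40 Gy (n = 3). The log2 change was 1.09 (SE 0.12, adjusted p = 0.0018, and 0.000488 to 0.0648 over the alternatives), and of the 21 alternatives 1 ended the call, which averaged 30Gy-1 and 30Gy-2 and omitted 20Gy-3 and 30Gy-3.

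CDK1, the kinase that cyclin B activates, was listed at 0 in control-1 and was at 0.0654 FPKM in control-2, at 0.356, 0.457 and 1.92 FPKM at 20 Gy, 1.60, 1.02 and 1.52 FPKM at 30 Gy and 1.57, 0.892 and 0.355 FPKM at 40 Gy. Every irradiated library was above both controls, but the range within 20 Gy was wide and the test was not passed (adjusted p = 0.107, and 0.0236 to 0.423 over the alternatives). Cyclin B2, CCNB2, overlapped between the groups, at 0.499 to 1.65 FPKM in irradiated libraries against 0.278 and 0.937 FPKM in controls (log2 change 0.36, SE 0.20, adjusted p = 0.355). CKS2, a small subunit of cyclin-dependent kinase complexes, was at 14.0 to 37.9 FPKM in irradiated libraries and at 20.3 and 15.5 FPKM in controls (log2 change 0.42, SE 0.31, adjusted p = 0.484). It too overlapped, with 40Gy-2 under both controls and 20Gy-1 and 40Gy-3 between them.

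Polo-like kinase 1, PLK1, which acts at mitotic entry and in spindle assembly, was at 0.313 and 0.309 FPKM in the control libraries, 1.66, 1.67 and 1.003 FPKM at 20 Gy, 0.964, 0.850 and 0.694 FPKM at 30 Gy and 1.34, 0.659 and 0.664 FPKM at 40 Gy. All irradiated libraries were above both controls and 20Gy-1 and 20Gy-2 were highest; PLK1 passed at 20 Gy only among the dose groups and not over all doses (log2 change 0.63, SE 0.18, adjusted p = 0.0774, and 0.0291 to 0.333 over the alternatives). PLK1 overlaps the gene ERN2. FOXM1, a transcription factor for mitotic genes, missed the minimum, with 0.395 to 1.16 FPKM in irradiated libraries and 0.0719 and 0.0780 FPKM in controls.

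Genes that act on chromosomes and centromeres included 3 that rose. TOP2A, the topoisomerase that untangles sister chromatids, was at 0.0946 and 0.0311 FPKM in the control libraries, 1.39, 0.827 and 1.31 FPKM at 20 Gy, 0.865, 1.06 and 1.25 FPKM at 30 Gy and 1.51, 1.02 and 0.551 FPKM at 40 Gy. The groups did not overlap, and the lowest irradiated library was 40Gy-3. TOP2A rose by 0.96 (SE 0.19, adjusted p = 0.0205, and 0.00366 to 0.184 over the alternatives) on the log2 scale.

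HJURP (chromosome 15, 134106561 to 134123163), the chaperone that places the centromere histone CENPA, was at 0.831 and 0.523 FPKM in the control libraries, 1.38, 1.17 and 1.07 FPKM at 20 Gy, 0.910, 1.06 and 1.02 FPKM at 30 Gy and 3.87, 4.19 and 3.65 FPKM at 40 Gy. Its libraries of 40 Gy stood above all others, and those of 20 and 30 Gy lay just above the controls. The log2 change over all doses was 0.74 (SE 0.13, adjusted p = 0.013, and 0.00552 to 0.173 over the alternatives). CENPA itself missed the minimum, at 0.469 to 1.60 FPKM in irradiated libraries and 0.0691 and 0.111 FPKM in controls.

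Survivin, BIRC5 (chromosome 12, 3747276 to 3755214), a subunit of the chromosomal passenger complex and an inhibitor of apoptosis, was at 4.42 and 3.51 FPKM in the control libraries, 9.89, 5.64 and 9.74 FPKM at 20 Gy, 7.31, 8.25 and 10.5 FPKM at 30 Gy and 8.59, 10.2 and 11.2 FPKM at 40 Gy. Even the lowest irradiated library, 20Gy-2, was above both controls. Its log2 change was 1.001 (SE 0.21, adjusted p = 0.0278, and 0.00978 to 0.248 over the alternatives). AURKB, the kinase of the same complex, was at 0.703 to 3.23 FPKM in irradiated libraries and 0.304 and 0.833 FPKM in controls, overlapped through 40Gy-3 and did not pass (log2 change 0.76, SE 0.28, adjusted p = 0.169).

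Among spindle genes, stathmin and KIF20A rose. Stathmin, STMN1 (chromosome 6, 83356404 to 83362546), binds tubulin dimers and destabilises microtubules, and was at 3.22 and 3.79 FPKM in the control libraries, 17.2, 18.1 and 17.1 FPKM at 20 Gy, 17.3, 17.5 and 17.2 FPKM at 30 Gy and 33.4, 14.4 and 11.3 FPKM at 40 Gy. The 6 libraries of 20 and 30 Gy lay within 17.1 to 18.1 FPKM, 40Gy-1 was far above them and 40Gy-2 and 40Gy-3 were below, but all were above the controls. Means were 3.50 ± 0.408 FPKM in controls (SD, n = 2), 17.5 ± 0.544 FPKM at 20 Gy (n = 3), 17.3 ± 0.171 FPKM at 30 Gy (n = 2) and 19.7 ± 11.9 FPKM at 40 Gy (n = 3). The log2 change was 2.04 (SE 0.30, adjusted p = 0.00465, and 5.79e-05 to 0.0805 over the alternatives).

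KIF20A, a kinesin of the central spindle needed for cytokinesis, was at 0.0824 and 0.0527 FPKM in the control libraries, 1.06, 0.997 and 1.18 FPKM at 20 Gy, 0.844, 0.697 and 1.32 FPKM at 30 Gy and 1.57, 0.882 and 0.640 FPKM at 40 Gy. The lowest irradiated library, 40Gy-3, was at 0.640 FPKM and the higher control at 0.0824 FPKM. Its log2 change was 0.91 (SE 0.18, adjusted p = 0.0228, and 0.00366 to 0.189 over the alternatives); KIF20A overlaps CDC23, so reads of both genes may not be told apart. TPX2, which nucleates spindle microtubules, was at 0.443 and 0.203 FPKM in the control libraries, 1.37, 1.57 and 2.17 FPKM at 20 Gy, 1.68, 1.72 and 1.55 FPKM at 30 Gy and 2.79, 0.608 and 0.831 FPKM at 40 Gy, with all irradiated libraries above the controls (log2 change 0.93, SE 0.27, adjusted p = 0.0864, and 0.00736 to 0.415 over the alternatives). NUSAP1, which bundles spindle microtubules, was at 2.02 to 2.87 FPKM in irradiated libraries and at 1.27 and 1.51 FPKM in controls, without overlap (log2 change 0.50, SE 0.13, adjusted p = 0.0596, and 0.0237 to 0.362 over the alternatives). NUSAP1 overlaps NDUFAF1 and OIP5.

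A further 4 genes of spindle attachment and cytokinesis were too low to be tested. The kinetochore gene NUF2 was at 0.259 to 1.12 FPKM in irradiated libraries and 0.266 and 0.122 FPKM in controls. Its complex partner NDC80 was at 0.127 to 1.05 FPKM in irradiated libraries, was listed at 0 in control-1 and was at 0.0646 FPKM in control-2. KIF23 was at 0.178 to 1.01 FPKM in irradiated libraries and 0.112 and 0.0164 FPKM in controls, and ECT2 at 0.456 to 0.844 FPKM in irradiated libraries and 0.419 and 0.277 FPKM in controls. KIF23 and ECT2 act in cytokinesis.

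CDC20 and UBE2C, which act in mitotic exit, rose over all doses. CDC20, the activator of the anaphase-promoting complex, was at 0.145 and 0.283 FPKM in the control libraries, 1.95, 2.89 and 3.22 FPKM at 20 Gy, 3.37, 3.32 and 3.17 FPKM at 30 Gy and 3.90, 1.05 and 1.16 FPKM at 40 Gy. The controls were lowest, 40Gy-2 and 40Gy-3 came next and the other 7 irradiated libraries reached 1.95 to 3.90 FPKM. The log2 change was 1.54 (SE 0.29, adjusted p = 0.016, and 0.000628 to 0.151 over the alternatives). UBE2C, the ubiquitin-conjugating enzyme of that complex, was at 0.463 and 1.93 FPKM in the control libraries, 5.82, 7.98 and 7.75 FPKM at 20 Gy, 6.74, 8.57 and 4.28 FPKM at 30 Gy and 8.28, 2.77 and 2.76 FPKM at 40 Gy. Here control-2 was well above control-1 but still under every irradiated library, and UBE2C rose by 1.70 (SE 0.37, adjusted p = 0.0312, and 0.00758 to 0.325 over the alternatives) on the log2 scale.

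**Figure D3:**
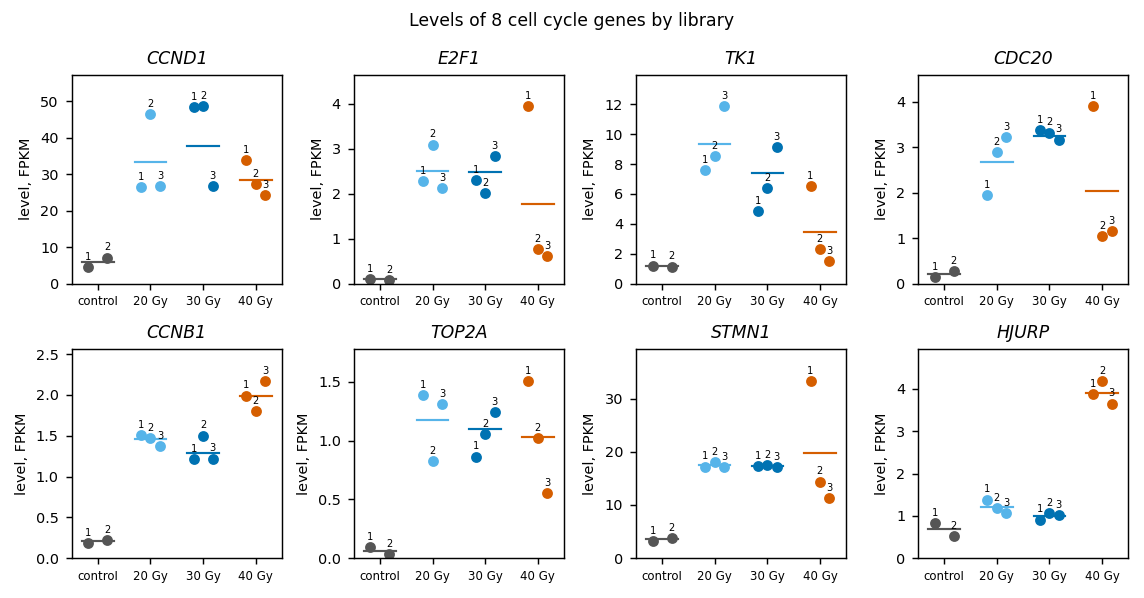
FPKM of 8 cell cycle genes that rose after irradiation (linear axes from 0) in each library, by group on the x axis; points are libraries, numbered by replicate, and lines are group means, with 30Gy-1 and 30Gy-2 counted as 1 sample at 30 Gy. In all 8 genes the irradiated points lie above both controls; in E2F1, TK1 and CDC20 the points of 40Gy-2 and 40Gy-3 are the lowest irradiated ones, and in HJURP all 3 of 40 Gy stand apart at the top.

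With only 2 control libraries, the count rested on both of them. Without control-1 the number of genes that rose was 3 (CCND1, CCNB1 and HJURP), and without control-2 it was 2 (CCND1 and CCNB1). Without 40Gy-1, 19 of the 31 genes then tested rose and 1, TYMS, fell, while 5.48% of all genes then rose and 6.80% fell. Without 30Gy-2 the number was 7. Omitting 20Gy-3 and 30Gy-3 4 rose, and with 30Gy-1 and 30Gy-2 averaged as well 1 did, CCND1. The calls over all genes fell too in both of these fits and varied widely with 1 library left out, as given below with the processing. The change of the count is thus not particular to the cell cycle genes. Calls that were also lost without a single irradiated library were those of UBE2C (adjusted p 0.0508 without 20Gy-1, 0.0556 without 20Gy-3, 0.0607 without 30Gy-1 and 0.057 without 30Gy-2) and BIRC5 (0.0514 without 20Gy-1 and 0.0549 without 30Gy-2), besides E2F1 and TK1 above.

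The dose groups were then each compared with the same 2 control libraries. Of the 32 genes, 18 were under 1 FPKM in both controls and entered only through irradiated libraries, so counts by dose are a description. The shares of all genes were not split by control level at single doses. At 20 Gy, 10 of the 32 genes rose, against 2.03% of all genes tested. These were CCND1, TK1, E2F1, CCNB1, PLK1, TOP2A, KIF20A, STMN1, CDC20 and UBE2C. Of these 10, E2F1, CCNB1, PLK1, TOP2A, KIF20A and CDC20 were among the 18. At 30 Gy, 6 rose (CCND1, TK1, CCNB1, TOP2A, STMN1 and CDC20), against 1.32% of all genes, and at 40 Gy, 8 rose (CCND1, MCM6, CCNB1, TOP2A, HJURP, KIF20A, BIRC5 and STMN1), against 2.99%. Of those that rose, CCNB1, TOP2A and CDC20 at 30 Gy and MCM6, CCNB1, TOP2A, HJURP and KIF20A at 40 Gy were among the 18. None of the 32 fell at any dose, but these 18 had little room to fall. Over all genes, 2.2% fell at 20 Gy, 1.71% at 30 Gy and 4.41% at 40 Gy. At an unadjusted p under 0.05 in limma 1 was lower at each dose, TYMS at 20 and 30 Gy and CDC45 at 40 Gy, where 11.8%, 8.83% and 12.9% of all genes were lower at 20, 30 and 40 Gy. Under other scalings CDC45 fell at 40 Gy (adjusted p = 0.0485 with quantile normalization and 0.0424 with libraries scaled to the same median FPKM) and TYMS fell at 20 Gy (0.0421 with the median scaling). CCND1, CCNB1, TOP2A and STMN1 passed at each dose, though TOP2A at 30 Gy only just (adjusted p = 0.0496).

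The log2 changes of these genes were close to each other across doses in some cases and not in others. STMN1 had a log2 change of 2.04 (SE 0.35, adjusted p = 0.0104) at 20 Gy, 2.03 (SE 0.35, adjusted p = 0.0126) at 30 Gy and 2.06 (SE 0.35, adjusted p = 0.00824) at 40 Gy. CCND1 had 2.29 (SE 0.34, adjusted p = 0.00475), 2.60 (SE 0.34, adjusted p = 0.00332) and 2.12 (SE 0.34, adjusted p = 0.00662) in the same order. The changes of CCNB1 were 1.03 (SE 0.15, adjusted p = 0.0042) at 20 Gy, 0.94 (SE 0.15, adjusted p = 0.00757) at 30 Gy and 1.31 (SE 0.15, adjusted p = 0.00152) at 40 Gy. Those of TOP2A were 1.02 (SE 0.22, adjusted p = 0.0304), 0.95 (SE 0.22, adjusted p = 0.0496) and 0.90 (SE 0.22, adjusted p = 0.0372).

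The calls of these 4 genes were not equally stable over the 21 alternatives. TOP2A lost its call under 10 of them at 20 Gy (adjusted p 0.00604 to 0.23 over the alternatives), 14 at 30 Gy (0.00911 to 0.84) and 11 at 40 Gy (0.0080 to 0.166), in each case also when either control was left out. Under the filter of 1 FPKM in 8 libraries TOP2A was not tested. STMN1 lost its call under 4 at 20 Gy (8.08e-05 to 0.127), 7 at 30 Gy (9.91e-05 to 0.486) and 3 at 40 Gy (0.000222 to 0.0736), again also when either control was left out. CCNB1 lost its call under 1 at 20 Gy (0.00116 to 0.0972) and 4 at 30 Gy (0.00167 to 0.469), there also when either control was left out, and under none at 40 Gy (0.000419 to 0.0317). CCND1 lost its call under 1 at each dose (0.0028 to 0.0523 at 20 Gy, 0.00196 to 0.124 at 30 Gy and 0.00524 to 0.0699 at 40 Gy), which was the omission of control-1 at 20 and 40 Gy.

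TK1 and CDC20 rose at both lower doses and did not pass at 40 Gy. TK1 had a log2 change of 2.22 (SE 0.41, adjusted p = 0.0151, and 0.00095 to 0.137 over the alternatives) at 20 Gy, 1.80 (SE 0.41, adjusted p = 0.0459, and 0.00291 to 0.754 over the alternatives) at 30 Gy and 0.86 (SE 0.41, adjusted p = 0.226, and 0.118 to 0.472 over the alternatives) at 40 Gy. CDC20 had one of 1.59 (SE 0.33, adjusted p = 0.028, and 0.000713 to 0.22 over the alternatives) at 20 Gy, 1.82 (SE 0.33, adjusted p = 0.0184, and 0.000351 to 0.519 over the alternatives) at 30 Gy and 1.20 (SE 0.33, adjusted p = 0.0573, and 0.0137 to 0.246 over the alternatives) at 40 Gy. MCM6 passed at 40 Gy, with 0.96 (SE 0.19, adjusted p = 0.0162, and 0.00898 to 0.107 over the alternatives), as did HJURP, with 1.55 (SE 0.15, adjusted p = 0.00109, and 0.000246 to 0.0259 over the alternatives), and BIRC5, with 1.15 (SE 0.25, adjusted p = 0.023, and 0.00981 to 0.144 over the alternatives). At 20 Gy E2F1 had 1.66 (SE 0.40, adjusted p = 0.0465, and 0.00056 to 0.223 over the alternatives), UBE2C 1.97 (SE 0.43, adjusted p = 0.0324, and 0.0049 to 0.23 over the alternatives) and PLK1 0.89 (SE 0.21, adjusted p = 0.0405, and 0.0081 to 0.182 over the alternatives). KIF20A had 0.96 (SE 0.22, adjusted p = 0.0348, and 0.00589 to 0.22 over the alternatives) at 20 Gy and 0.90 (SE 0.22, adjusted p = 0.0338, and 0.00712 to 0.151 over the alternatives) at 40 Gy. Passing at one dose and not at another does not show that the doses differ, and the doses were also compared directly.

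Single libraries weighed on these counts too. At 20 Gy the number of genes that rose was 1 without control-1, 2 without control-2, 4 without 20Gy-1, 20Gy-3, 30Gy-1 or 30Gy-2, 6 without 20Gy-2 and 18 without 40Gy-1. At 30 Gy it was 1 without either control, 2 without 30Gy-1 or 30Gy-2, 3 without 30Gy-3, 4 without 20Gy-1, 20Gy-3 or 40Gy-2 and 16 without 40Gy-1. At 40 Gy it was 2 without control-1, 3 without control-2, 5 without 40Gy-2 and 11 without 40Gy-1. Without 40Gy-1 the share of all genes that rose was larger too, with 7% at 20 Gy, 4.79% at 30 Gy and 11.7% at 40 Gy. TYMS then fell at 20 and at 30 Gy and CDC45 at 40 Gy, while 7.25%, 4.83% and 11.4% of all genes fell at 20, 30 and 40 Gy. Omitting 20Gy-3 and 30Gy-3, 2 genes rose at 20 Gy, 1 at 30 Gy and 6 at 40 Gy, and the calls over all genes fell at each dose too. The calls of HJURP and CCNB1 at 40 Gy held under all 21 alternatives.

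**Figure D4:**
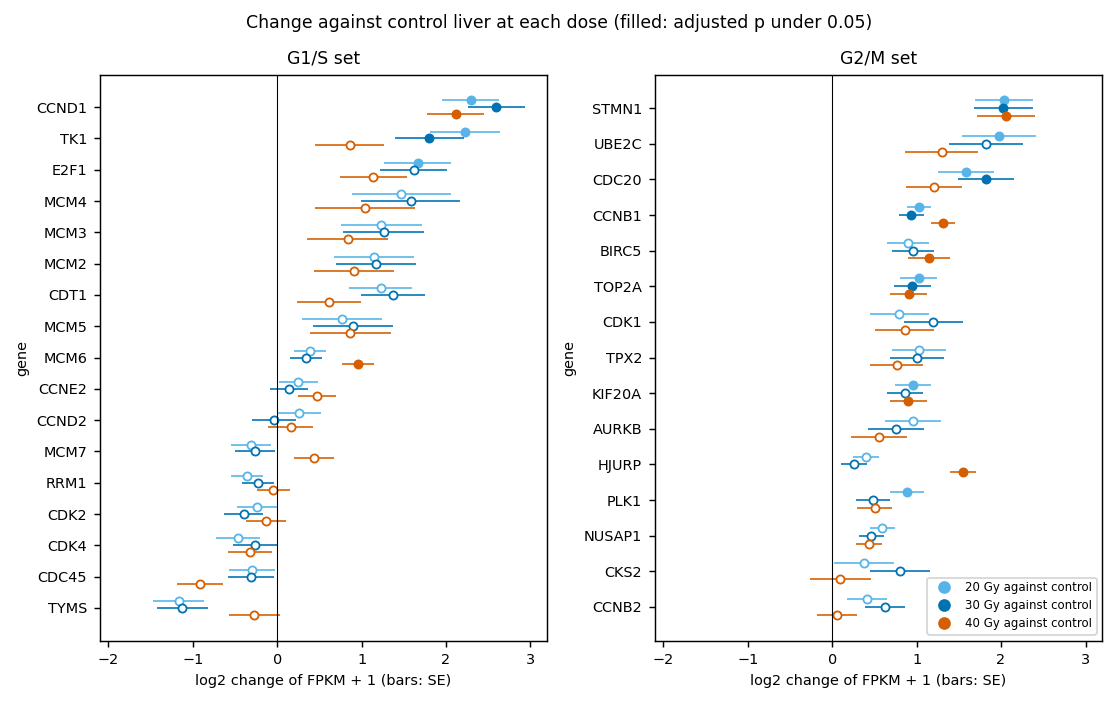
Log2 change of FPKM + 1 against control for the 32 tested genes, by gene on the y axis and by dose in colour, with bars of 1 SE; filled points passed at an adjusted p under 0.05. All G2/M points lie right of 0, the points of 40 Gy are right of those of the lower doses in HJURP, MCM6 and CCNB1, and left of them in TK1, CDT1 and CDC20.

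The highest dose was next compared with the 2 lower doses, all at day 35. In this comparison 4 cell cycle genes were higher at 40 Gy (HJURP, MCM6, MCM7 and TYMS) and TK1 was lower. Over all genes tested, 11.8% were higher and 9.71% lower, or 21.5% in either direction, so the 5 of 32 cell cycle genes are no larger a share than that of all genes. With libraries scaled to the same median FPKM, 956 of all genes were higher and 1386 lower, in place of 1377 and 1131, and CDC45 was lower as well (adjusted p = 0.0421). The median log2 difference was 0.04 in the G1/S set, -0.14 in the G2/M set and 0.07 over all genes. Without 40Gy-1 it was -0.52 in the G1/S set, -0.36 in the G2/M set and again 0.07 over all genes.

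HJURP differed most, with 3.87, 4.19 and 3.65 FPKM at 40 Gy and 0.910 to 1.38 FPKM at 20 and 30 Gy. The log2 difference was 1.22 (SE 0.12, adjusted p = 0.000208, and 0.000131 to 0.0274 over the alternatives), and the call held under all 21 alternatives. MCM6 was at 2.12, 1.42 and 1.40 FPKM at 40 Gy and 0.600 to 1.13 FPKM at the lower doses, a log2 difference of 0.60 (SE 0.15, adjusted p = 0.0193, and 0.0109 to 0.225 over the alternatives). That of MCM7 was 0.71 (SE 0.18, adjusted p = 0.0226, and 0.0115 to 0.227 over the alternatives), with 19.4, 25.1 and 22.5 FPKM at 40 Gy and 10.0 to 16.1 FPKM at the lower doses. TYMS was at 13.9, 8.26 and 7.05 FPKM at 40 Gy and 3.83 to 5.48 FPKM at the lower doses, which gave 0.87 (SE 0.23, adjusted p = 0.0263, and 0.0188 to 0.239 over the alternatives). In these 4 genes and CCNB1 all 3 libraries of 40 Gy lay above all 6 of 20 and 30 Gy, as in 13% of all genes tested. CCNB1 had a log2 difference of 0.33 (SE 0.11, adjusted p = 0.0619, and 0.041 to 0.372 over the alternatives).

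TK1 was at 6.50, 2.29 and 1.51 FPKM at 40 Gy and 4.86 to 11.8 FPKM at 20 and 30 Gy. It was lower at 40 Gy by a log2 difference of -1.15 (SE 0.32, adjusted p = 0.0293, and 0.000716 to 0.235 over the alternatives), although 40Gy-1 lay within the range of the lower doses. Without 40Gy-2 the call remained for HJURP alone. The adjusted p was then 0.0541 for MCM6, 0.108 for MCM7, 0.0726 for TYMS and 0.129 for TK1. MCM7 (0.0757) and TK1 (0.128) were also lost without 40Gy-3, TYMS without 20Gy-1 (0.0577), 20Gy-3 (0.0558) or 30Gy-3 (0.0521), and TK1 without 20Gy-3 (0.0615), 30Gy-2 (0.0525) or 30Gy-3 (0.0558). Omitting 20Gy-3 and 30Gy-3, HJURP alone remained, and the calls over all genes fell too.

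The libraries of 40 Gy were unlike each other. 40Gy-1 had the highest level of all 11 libraries in 13 of the 32 genes, against 16% of all genes tested. It was at least 2-fold above both 40Gy-2 and 40Gy-3 in 13 genes, against 14.3%, among them E2F1, CDT1, MCM2 to MCM5, TK1, PLK1, TPX2, CDC20, UBE2C and STMN1. It was above both in 24 genes, against 41.2%. The exceptions were HJURP, CCNB1, MCM7, BIRC5, NUSAP1, CCNE2, CDK2 and CDK4. At 1 FPKM or more, 40Gy-1 had 17 of the 18 G1/S genes and 19 of the 21 G2/M genes in the table, 40Gy-2 had 14 and 10, and 40Gy-3 had 11 and 8.

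Without 40Gy-1, 12 cell cycle genes were lower at 40 Gy than at 20 and 30 Gy, against 18.1% of all genes, and 5 were higher, against 21.9%. The 12 were E2F1, CDT1, MCM3, MCM4, MCM5, CDC45, TK1, CKS2, TPX2, STMN1, CDC20 and UBE2C. The 5 were HJURP, CCNB1, MCM6, MCM7 and TYMS. In that fit E2F1 had a log2 difference of -1.01 (SE 0.15, adjusted p = 0.000819), MCM4 one of -1.24 (SE 0.23, adjusted p = 0.00256), CDC20 one of -0.91 (SE 0.15, adjusted p = 0.00152) and TK1 one of -1.61 (SE 0.23, adjusted p = 0.000716). Marker sums of macrophages, stellate cells, T and NK cells and B and plasma cells were also highest in 40Gy-1. Its endothelial and neutrophil sums were instead the lowest of 40 Gy.

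Other genes of the cell cycle machinery were taken from 7 further lists. Few of them passed in irradiated against control liver, where 1.86% of all genes rose and 2.84% fell. In the list of other mitotic machinery 3 of the 25 tested rose, and none fell. They were the mitotic kinase gene PBK (log2 change 1.12, SE 0.19, adjusted p = 0.00965, and 0.000962 to 0.119 over the alternatives), the chromosome-bound kinesin gene KIF22 (1.02, SE 0.22, adjusted p = 0.0282, and 0.00332 to 0.231 over the alternatives) and CENPT, a kinetochore gene (0.97, SE 0.23, adjusted p = 0.0434, and 0.00545 to 0.265 over the alternatives). PBK was at 0.638 to 1.90 FPKM in irradiated libraries against 0.102 and 0.0549 FPKM in controls. By an unadjusted p under 0.05 in limma, 11 of the 25 genes of that list were higher and 1 was lower. Of all genes, 8.91% were higher and 11.2% lower by that threshold. Of the anaphase-promoting complex and its partners 1 of 13 rose, UBE2S, which extends ubiquitin chains for that complex (1.07, SE 0.24, adjusted p = 0.0347, and 0.0191 to 0.252 over the alternatives). It was at 20.5 to 44.4 FPKM in irradiated libraries and at 14.4 and 12.7 FPKM in controls. E2F3 rose among the 11 tested genes of the retinoblastoma, E2F and DREAM group (0.59, SE 0.14, adjusted p = 0.0483, and 0.0244 to 0.288 over the alternatives). No gene passed among 31 of other replication machinery, 12 other cyclins, kinases and phosphatases, 15 inhibitors and brakes and 18 mitogens, receptors and mitogen-induced factors. At an unadjusted p under 0.05 in limma, 5 replication genes were higher and none was lower, 2 genes of the second of these lists were higher and 1 lower, 1 inhibitor was higher and 2 were lower, and 3 genes of the mitogen list were higher and 1 was lower, next to 8.91% of all genes higher and 11.2% lower. The median log2 change was 0.49 in the list of other mitotic machinery and 0.14 in other replication machinery. It was -0.04 in inhibitors and brakes, next to 0.01 over all genes. Genes such as PBK entered the test only through irradiated libraries, so the counts and medians of these lists are a description too.

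The inhibitors CDKN1A and CDKN1B overlapped between irradiated and control liver. CDKN1A, which encodes p21 and is induced by p53, was at 77.1 and 66.5 FPKM in the control libraries, 57.9, 84.5 and 48.3 FPKM at 20 Gy, 65.8, 68.9 and 46.6 FPKM at 30 Gy and 87.7, 54.9 and 47.3 FPKM at 40 Gy (log2 change -0.23, SE 0.27, adjusted p = 0.684, 95% interval -0.84 to 0.37). CDKN1B, which encodes p27, was at 15.6 and 12.1 FPKM in the control libraries, 11.9, 8.97 and 11.04 FPKM at 20 Gy, 8.03, 8.55 and 11.8 FPKM at 30 Gy and 6.998, 35.4 and 28.1 FPKM at 40 Gy (log2 change -0.13, SE 0.44, adjusted p = 0.9). 40Gy-2 and 40Gy-3 were the highest for CDKN1B and 40Gy-1 the lowest. Of the 15 inhibitors and brakes tested, 2 were higher and 1 lower at 40 Gy than at 20 and 30 Gy. Over all genes tested 11.8% were higher and 9.71% lower. SESN1, a p53 target that restrains growth signalling, was lower at 40 Gy than at 20 and 30 Gy (log2 difference -1.44, SE 0.44, adjusted p = 0.0429, and 0.011 to 0.235 over the alternatives), and PLK3 (1.14, SE 0.32, adjusted p = 0.0295, and 0.0207 to 0.13 over the alternatives) and GADD45A (0.57, SE 0.16, adjusted p = 0.0342, and 0.027 to 0.211 over the alternatives), both induced by stress, were higher.

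At 40 Gy the D-type cyclin CCND3 was also higher. It was at 13.6 and 10.97 FPKM in the control libraries, 13.6, 24.9 and 12.04 FPKM at 20 Gy, 19.8, 19.0 and 11.2 FPKM at 30 Gy and 35.3, 60.9 and 55.3 FPKM at 40 Gy. All 3 libraries of 40 Gy lay above all others, and the log2 change was 1.92 (SE 0.36, adjusted p = 0.0124, and 0.00321 to 0.0878 over the alternatives) against control and 1.55 (SE 0.28, adjusted p = 0.00476, and 0.00142 to 0.0888 over the alternatives) against 20 and 30 Gy. Among other replication machinery, RFC3 (0.89, SE 0.19, adjusted p = 0.00977) and RFC4 (0.92, SE 0.20, adjusted p = 0.011) of the clamp loader, RPA1 of the single-strand binding complex (0.64, SE 0.19, adjusted p = 0.0411) and the polymerase subunit gene POLD3 (0.73, SE 0.21, adjusted p = 0.0314) were higher at 40 Gy than at 20 and 30 Gy. RPA3 (-1.002, SE 0.23, adjusted p = 0.015) and DUT (-1.02, SE 0.32, adjusted p = 0.0479) were lower. So were the growth factor genes HBEGF (-0.89, SE 0.18, adjusted p = 0.00856) and EREG (-1.26, SE 0.24, adjusted p = 0.00662), whereas E2F6 (0.79, SE 0.16, adjusted p = 0.00751) and the cytokine receptor gene IL6ST (0.57, SE 0.17, adjusted p = 0.0368) were higher.

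Against control at single doses, the cyclin gene CCNG1 fell at 20 Gy (log2 change -1.17, SE 0.28, adjusted p = 0.0455, and 0.0237 to 0.246 over the alternatives) and HBEGF rose at 20 Gy (1.12, SE 0.23, adjusted p = 0.027) and 30 Gy (1.03, SE 0.23, adjusted p = 0.0459). At 40 Gy E2F3 (0.81, SE 0.17, adjusted p = 0.0194), RFC3 (1.08, SE 0.24, adjusted p = 0.0258), CHAF1B (0.96, SE 0.22, adjusted p = 0.0276), SMC4 (0.75, SE 0.18, adjusted p = 0.0372), PBK (0.88, SE 0.22, adjusted p = 0.0394) and UBE2S (1.23, SE 0.28, adjusted p = 0.0286) rose and EREG fell (-1.40, SE 0.31, adjusted p = 0.0258). PBK also rose at 20 Gy (1.34, SE 0.22, adjusted p = 0.00861) and 30 Gy (1.12, SE 0.22, adjusted p = 0.0249), and KIF22 (1.23, SE 0.26, adjusted p = 0.0268) and UBE2S (1.24, SE 0.28, adjusted p = 0.037) rose at 20 Gy. Over all genes 2.03% rose and 2.2% fell at 20 Gy, 1.32% and 1.71% at 30 Gy, and 2.99% and 4.41% at 40 Gy.

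**Figure D5:**
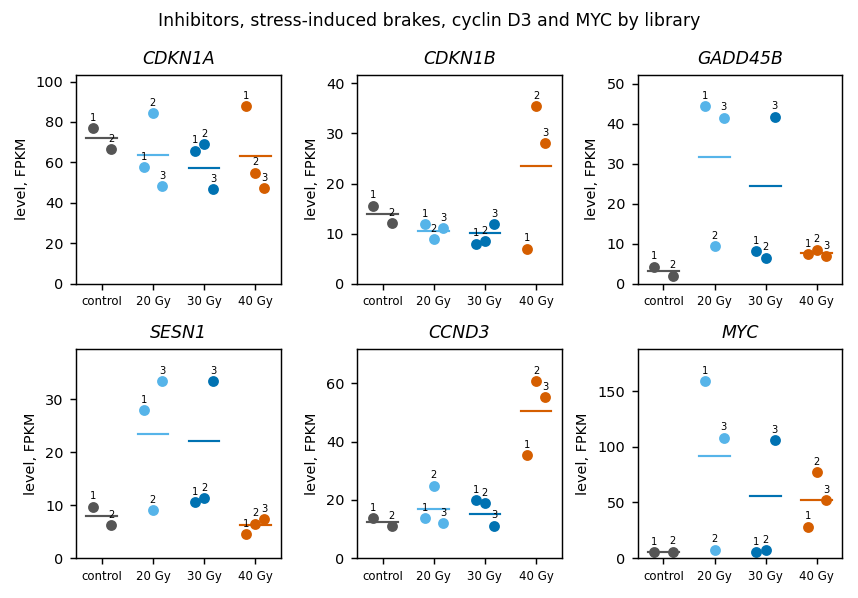
FPKM of the inhibitor genes CDKN1A and CDKN1B, the stress-induced GADD45B and SESN1, cyclin D3 and MYC (linear axes from 0) in each library, by group on the x axis; points are libraries, numbered by replicate, and lines are group means, with 30Gy-1 and 30Gy-2 counted as 1 sample at 30 Gy. CDKN1A overlaps across groups, CCND3 is highest in the 3 libraries of 40 Gy, and GADD45B, SESN1 and MYC are high in 20Gy-1, 20Gy-3 and 30Gy-3 and low in 20Gy-2, 30Gy-1 and 30Gy-2.

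Markers of other liver cells varied across the same libraries. The 8 hepatocyte markers in the table summed to 63377 and 40017 FPKM in controls, 42997 to 49974 FPKM at 20 Gy, 47340 to 54092 FPKM at 30 Gy and 14603 to 23124 FPKM at 40 Gy, so hepatocyte transcripts were abundant in every library. None of the 8 passed in irradiated against control liver, though all 8 had a negative log2 change, with a median of -0.38. ALB, TTR and ASGR1 fell at 40 Gy against control, as did 4.41% of all genes. ALB, TF, TTR and ASGR1 were lower at 40 Gy than at 20 and 30 Gy, as were 9.71% of all genes. The 10 of 11 macrophage markers in the table summed to 914 and 687 FPKM in controls, 351 to 753 FPKM at 20 Gy, 361 to 750 FPKM at 30 Gy and 519 to 1230 FPKM at 40 Gy. 40Gy-1 was the highest of the 11 libraries in 9 of the 10, next to 16% of all genes tested. All 11 stellate cell and myofibroblast markers were in the table and summed to 65.0 and 102 FPKM in controls, 168 to 250 FPKM at 20 Gy, 161 to 202 FPKM at 30 Gy and 63.4 to 407 FPKM at 40 Gy, with 40Gy-1 the highest of the 11 libraries in 8 of the 11.

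The 9 of 13 T and NK cell markers in the table summed to 18.9 and 20.2 FPKM in controls. Their sums were 24.3 to 30.0 FPKM at 20 Gy, 23.8 to 28.4 FPKM at 30 Gy and 13.6 to 47.8 FPKM at 40 Gy. The sum was again highest in 40Gy-1, but that library was the highest of the 11 in 3 of the 9 markers. LCK, CD8A, CD5 and CD3E were lower at 40 Gy than at 20 and 30 Gy, as were 9.71% of all genes. For the 5 of 8 B and plasma cell markers the sums were 45.4 and 41.6 FPKM in controls, 40.7 to 44.7 FPKM at 20 Gy, 42.0 to 45.9 FPKM at 30 Gy and 71.3 to 111 FPKM at 40 Gy. Neutrophil markers, 4 of 6, summed to 4.74 and 1.65 FPKM in controls, 1.24 to 1.75 FPKM at 20 Gy, 1.25 to 1.36 FPKM at 30 Gy and 8.42 to 18.2 FPKM at 40 Gy. S100A12 was listed at 0 in 20Gy-1 and 30Gy-1, and S100A8 in all 3 libraries of 20 Gy and in 30Gy-2. The 10 endothelial markers summed to 298 and 352 FPKM in controls. Endothelial sums were 137 to 162 FPKM at 20 Gy, 111 to 144 FPKM at 30 Gy and 113 to 248 FPKM at 40 Gy. In this sum every irradiated library was below both controls. Among the single markers this held for 2 of the 10, next to 7.86% of all genes tested. Bile duct markers, 5 of 7, summed to 16.2 and 36.4 FPKM in controls, 31.9 to 61.2 FPKM at 20 Gy, 32.2 to 51.6 FPKM at 30 Gy and 41.2 to 45.2 FPKM at 40 Gy. The 3 of 9 erythroid markers in the table summed to 826 and 106 FPKM in controls, 58.1 to 232 FPKM at 20 Gy, 88.7 to 337 FPKM at 30 Gy and 11.7 to 54.4 FPKM at 40 Gy, and AHSP was listed at 0 in control-2 and 40Gy-2.

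Of these markers, MARCO and JCHAIN rose in irradiated against control liver and CD79A and LYVE1 fell, next to 1.86% and 2.84% of all genes. Of the 10 macrophage markers tested, 8 had a negative log2 change, with a median of -0.37, and MARCO alone passed. Of the 10 endothelial markers 8 were negative, and of the 3 B and plasma cell markers tested 2 were positive and 1 negative. The stellate cell and macrophage sums were highest in 40Gy-1, as were those of T and NK cells and of B and plasma cells. That library also had the highest levels of MCM2 to MCM5, E2F1, CDC20, TOP2A and STMN1. Its endothelial sum, 113 FPKM, and its neutrophil sum, 8.42 FPKM, were the lowest of 40 Gy. The part of other cell types in the changes of the cell cycle genes was not tested. The 4 genes set as markers of cycling cells, CCND1, CCNB1, TOP2A and MKI67, all belong to the list followed here, and MKI67 had no matched row. The other 3 rose in irradiated against control liver, as did 1.86% of all genes tested. In each, all 9 irradiated libraries were above both controls, as in 5.42% of all genes. These are the values given above and not a separate result, and CCNB1 and TOP2A entered the test only through the irradiated libraries.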

How the data were processed

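The authors deposited 1 table of FPKM for 12505 pig genes in 11 liver libraries, per the file headers. RNA libraries were made with a TruSeq kit and read in pairs on an Illumina HiSeq, per the labels' protocols. HISAT2, Cufflinks and HTSeq, with Sscrofa11.1 and mm10 as builds, are named without roles in the submitters' processing notes, and no source used here states the counting mode or strand. Symbols were paired with 10561 of the 12505 IDs through a gene name table, and coordinates and overlaps come from RefSeq genes of Sscrofa11.1.

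Genes with at least 1 FPKM in 2 libraries were fitted with limma 3.58.1 in R 4.3.3 on log2(FPKM + 1): 4 group means, moderated variances with a trend, 7 residual degrees of freedom, and Benjamini-Hochberg adjustment over 11644 genes in each of 5 contrasts. The procedure was tested on simulated data. FPKM carries no depth. For each pair of libraries, genes above 0 and under 0.2 FPKM in both were checked for ratios within 1% of small whole-number ratios. At the best shift at most 36.1% met this, in the near-identical pair of 20Gy-3 and 30Gy-3, and the share expected by coincidence was not determined. Whole reads were thus not recovered, and no count test was run. The alternatives were a pseudocount of 0.1, no filter, a filter of 1 FPKM in 8 libraries, quantile normalization, scaling to the same median, no trend, a replicate block, 30Gy-1 and 30Gy-2 averaged, 20Gy-3 and 30Gy-3 omitted, both of these, and each library left out.

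Named with full values are CCND1, CCNB1, all members called in any contrast and, in each set, 6 further members with the largest absolute change; of other lists, up to 6 called genes each. The members, lists and marker sets were chosen with earlier results of these data known. Some items are not reported here.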

Additional observations from a re-analysis of the deposited data

Results flagged for a closer look

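In 5 cell cycle genes the effect of 40 Gy differed from that of 20 and 30 Gy by the direct test of limma with Benjamini-Hochberg adjustment, which is what marked them. The log2 difference was 1.22 for HJURP (adjusted p = 0.000208), with all 3 libraries of 40 Gy above all 6 of the lower doses. It was 0.87 for TYMS (adjusted p = 0.0263), 0.71 for MCM7 (adjusted p = 0.0226) and 0.60 for MCM6 (adjusted p = 0.0193), again with 3 of 3 libraries above all 6. For TK1 it was -1.15 (adjusted p = 0.0293), with 40Gy-2 and 40Gy-3 below all 6 and 40Gy-1 within their range. Of all genes tested 21.5% differed in this comparison. Single samples were not tested for lying apart, because the rule used needs 4 or more libraries in a group; the effect of leaving out each library, 40Gy-1 included, is given with the results.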

How the results depend on the processing

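No called value of a cell cycle gene changed sign under any of the 21 alternatives. Of 828 recomputed values, 597 kept their call and 231 lost it, 55 of them without a control library; 4 of the 40 called values lost it under no alternative (CCND1 in irradiated against control, CCNB1 and HJURP at 40 Gy against control, and HJURP at 40 Gy against 20 and 30 Gy).

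In irradiated against control the number of genes called was 11, and 4 omitting 20Gy-3 and 30Gy-3, 1 with 30Gy-1 and 30Gy-2 averaged as well, and 2 to 20 leaving out 1 library. At 20 Gy it was 10, and 6 with the filter of 8 libraries, 4 with the pair averaged, 2 omitting 20Gy-3 and 30Gy-3, 1 with both steps, and 1 to 19 leaving out 1 library. At 30 Gy it was 6, and 10 with a pseudocount of 0.1, 2 with the pair averaged, 1 omitting 20Gy-3 and 30Gy-3, 0 with both steps, and 1 to 17 leaving out 1 library. At 40 Gy it was 8, and 5 with the filter of 8 libraries, 3 with both steps, and 2 to 12 leaving out 1 library. For 40 Gy against 20 and 30 Gy it was 5, and 1 omitting 20Gy-3 and 30Gy-3, 1 with both steps, and 1 to 17 leaving out 1 library. Of the called genes, E2F1, PLK1, TOP2A, KIF20A and MCM6 missed the filter of 8 libraries and were not tested there. They account for the smaller counts at 20 and 40 Gy, and no other called gene lost its call under that filter. Both steps leave 4 residual degrees of freedom in place of 7. Otherwise the cause was not tested.

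With the replicate number as a block, 9 genes were called in irradiated against control, 6 at 20 Gy, 4 at 30 Gy, 6 at 40 Gy and 5 at 40 Gy against 20 and 30 Gy. The numbers do not pair the libraries: correlations of 15 same-numbered pairs were -0.616 to 0.645, 7 of them over 0.1, and 5 libraries correlated best with their own number.

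Over all genes, the calls in irradiated against control were 548, and 290 omitting 20Gy-3 and 30Gy-3, 337 with the pair averaged, 42 with both and 80 to 1416 leaving out 1 library. They were 492 at 20 Gy, and 206, 295 and 59 under the same steps and 118 to 1644 leaving out 1 library. At 30 Gy they were 353, and 126, 130, 8 and 75 to 1110. At 40 Gy they were 861, and 551, 548, 123 and 224 to 2655. For 40 Gy against 20 and 30 Gy they were 2508, and 1177, 1783, 202 and 846 to 4611. Scaling to the same median shifted the median log2 change of all genes at 40 Gy against control to -0.05, next to 0.06, and gave 291 higher and 775 lower genes there, next to 348 and 513.

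The median log2 change over irradiated against control was 1.95 in the G2/M set and 1.24 in the G1/S set with a pseudocount of 0.1. With the filter of 8 libraries 11 G1/S genes remained, with a median of -0.04. Without 40Gy-1 the medians of 40 Gy against 20 and 30 Gy were -0.52 in the G1/S set and -0.36 in the G2/M set.

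Depth is unknown, so no counting error can be given, and levels under 1 FPKM are the least certain. The main limits are 2 control libraries, their earlier labelled day, near-identical pairs of libraries and a high spread at 40 Gy.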

Other observations

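The libraries of 20 and 30 Gy differed among themselves in several genes of cell cycle entry, in an order that did not follow dose; these genes were chosen after their values were seen, and no test was made. MYC, a transcription factor that growth signals induce, was at 5.22 and 5.76 FPKM in the control libraries, 159, 7.64 and 108 FPKM at 20 Gy, 5.35, 7.38 and 106 FPKM at 30 Gy and 28.3, 77.1 and 51.9 FPKM at 40 Gy. It was high in 20Gy-1, 20Gy-3 and 30Gy-3 and close to the controls in the other 3 libraries of these doses. GADD45G, a stress-induced brake, had 55.7 and 27.4 FPKM in the control libraries, 292, 19.5 and 352 FPKM at 20 Gy, 26.9, 19.5 and 352 FPKM at 30 Gy and 36.4, 72.7 and 84.5 FPKM at 40 Gy. DBF4, the activating subunit of the CDC7 kinase that fires replication origins, had 3.21 and 2.69 FPKM in the control libraries, 6.75, 3.69 and 8.51 FPKM at 20 Gy, 4.22, 3.76 and 8.92 FPKM at 30 Gy and 2.53, 2.49 and 4.33 FPKM at 40 Gy.

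The same libraries stood at the other end for several other genes. In 20Gy-1, 20Gy-3 and 30Gy-3 CCND1 was at 26.6, 26.8 and 26.8 FPKM, CDK4 at 24.6, 26.6 and 26.9 FPKM and CKS2 at 17.7, 21.6 and 25.2 FPKM. In 20Gy-2, 30Gy-1 and 30Gy-2 CCND1 was at 46.6, 48.5 and 48.6 FPKM, CDK4 at 41.3, 38.4 and 40.0 FPKM and CKS2 at 33.0, 37.9 and 33.4 FPKM. Each of these sets of 3 holds 1 of the near-identical pairs, so neither counts as 3 independent libraries.

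BIRC5 and TK1, which both rose after irradiation, are neighbours on chromosome 12 of Sscrofa11.1, at 3747276 to 3755214 and 3785997 to 3794824. Their levels were not ordered alike across libraries: BIRC5 was highest in 40Gy-3, with 11.2 FPKM, where TK1 was lowest among the irradiated libraries, with 1.51 FPKM.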
